A study of Mus musculus with 6 samples.

Results

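The control epididymal adipocyte fraction was the floating layer left on top after fat pads of 3 male C57BL/6 mice of genotype PU.1 fl/fl had been digested with collagenase and spun. The 3 control libraries were taken from the 6 libraries of the series by their genotype label, with 1 library per mouse, and they are called control mouse 1, 2 and 3 in the order of the labels. These chow-fed mice carry no Cre, so their Spi1 gene, which encodes the transcription factor PU.1, keeps its exon between loxP sites. The other 3 mice of the series, aPU.1KO, carry the same floxed alleles and Cre driven by the adiponectin promoter, and none of their values is used. By their labels the mice were 10 to 11 months old, while the text of the study gives a higher age. All control mice carry the floxed alleles, so the values describe floxed mice and not mice with an unmodified Spi1.

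White adipocytes store triglyceride in a single large lipid droplet, take up fatty acids that lipoprotein lipase frees from circulating lipoproteins, make some fatty acids themselves, and release them again by lipolysis. They are also endocrine cells, known for leptin, adiponectin, resistin and the complement protease adipsin. When fat is digested with collagenase the buoyant adipocytes float, while macrophages, endothelial cells, pericytes and adipose progenitors mostly sediment, so that the floating layer is enriched for adipocytes without being made of them alone.

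The estimated counts summed to 69283842 in mouse 1, 22770714 in mouse 2 and 23392407 in mouse 3, so that 3 counts corresponded to CPM values of 0.0431, 0.136 and 0.124. CPM, counts per megaread, is here the share of a library scaled with edgeR's TMM factors, which were 1.00, 0.967 and 1.03. To compare levels between genes the counts were also divided by transcript length and rescaled to the same sum in each library, which gives TPM, a level per length. Of 35122 genes listed, 14853 had no count in any of the 3 mice, 12932 had a mean of at least 1 CPM, 1896 at least 100 CPM and 97 at least 1000 CPM. Mouse 2 stood apart from the other 2 mice: on the log2 CPM scale across the 12932 genes, Pearson's r was 0.976 between mice 1 and 2, 0.965 between mice 2 and 3 and 0.994 between mice 1 and 3. Genes are not independent replicates, so these correlations carry no p-value, and no 2 libraries were duplicates, the smallest chi-square per degree of freedom being 19.0.

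The most abundant transcripts per length were those of fat storage and of the mitochondrial genome. Fabp4 (ENSMUSG00000062515; chr3:10204088-10208576, minus strand, GRCm38), which encodes the fatty acid binding protein of adipocytes, was at 20415, 18604 and 23751 TPM in mice 1, 2 and 3. The 3 mice lay close together, with a mean of 20923 ± 2611 TPM (SD, n = 3). That value ranked first with the mean length of its protein-coding transcripts, but it fell to 7442 TPM and rank 15 with merged exon lengths and to 6303 TPM and rank 17 with the longest transcript, so neither its level nor its rank is firm. Scd1 (ENSMUSG00000037071; chr19:44394455-44407879, minus strand), the desaturase that makes oleate from stearate, was at 18543, 32570 and 11304 TPM. Mouse 2 was the highest and mouse 3 the lowest, with a mean of 20806 ± 10812 TPM, and Scd1 ranked 3 and 4 under the other lengths, where mt-Co1 ranked first. Car3, the cytosolic carbonic anhydrase that is abundant in fat, was at 14640, 19743 and 12606 TPM, again highest in mouse 2. Leptin (Lep; chr6:29060220-29073877) was at 4739, 4527 and 5114 TPM and adiponectin (Adipoq; chr16:23146536-23158028) at 4988, 5692 and 5485 TPM, and for neither hormone did any mouse stand apart.

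Of the 20 genes with the highest mean TPM, 8 were protein genes of the mitochondrial genome, led by mt-Co1, a cytochrome c oxidase subunit, at 16276, 18068 and 13800 TPM. Mitochondrially encoded genes held 4.90%, 5.40% and 4.34% of all counts, and 12 of their 13 protein genes were highest in mouse 2 and lowest in mouse 3. That order was also the most frequent among all 12932 expressed genes, at 32.1%, before the order 3, 1, 2 at 30.8% and 1, 3, 2 at 14.6%, and the other orders 2, 3, 1, then 1, 2, 3 and 3, 2, 1 were taken by 8.46%, 7.25% and 6.73%. Another 2 of the 20, Gm29216 and Gm28661, are pseudogenes that share 97.2% and 100% of their 31-base sequences with mitochondrial genes, so their counts cannot be separated from those of mt-Co1 and mt-Co2. Likewise mt-Co3, mt-Atp6 and mt-Nd4 share 99.9%, 99.5% and 62.8% of theirs with other genes. Counts given to such copies are not in the mitochondrial shares above. The other 10 were Fabp4, Scd1, Car3, Sparc, Lpl, Gsn, Hp, Cav1, Eef1a1 and Cidec. Of the sequences of Eef1a1, 46.1% are shared with other genes. Sparc, a collagen-binding matrix protein, was at 7666, 7220 and 8878 TPM, and Gsn, the actin-severing protein gelsolin, was at 6741, 6950 and 7470 TPM. Among these 20 genes, 2 differed at least 2-fold between mice, Scd1 and Hp (haptoglobin, which binds free haemoglobin), against 7.45% of all expressed genes.

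**Figure D1:**
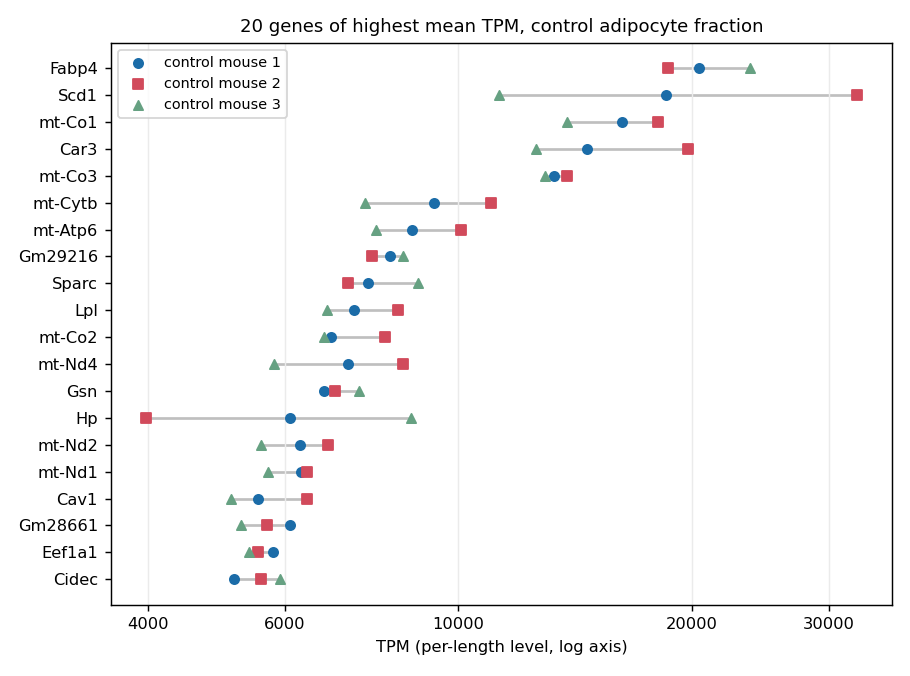
TPM (log axis) of the 20 genes with the highest mean TPM in control mice 1, 2 and 3, 1 point per mouse, with a grey line from the lowest to the highest mouse. With mean transcript lengths Fabp4 and Scd1 lead with similar means, and the 3 mice span 18604 to 23751 TPM for Fabp4 and 11304 to 32570 TPM for Scd1.

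By the share of counts, which favours long transcripts, Scd1 came first with 26793, 47658 and 16310 CPM, followed by Lpl with 16955, 19544 and 15641 CPM. The 10 most abundant genes held 11.2%, 13.9% and 10.2% of the counts of mice 1, 2 and 3, and the 1000 most abundant held 58.6%, 61.0% and 58.3%. Mouse 2, with the highest Scd1, had the largest share in both.

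The label of the fraction was checked with marker lists. All 16 white adipocyte markers had a mean of at least 1 CPM, and together they summed to 48645, 55573 and 49982 CPM, above every other cell type list. Markers of other cells of fat were present at far lower sums in the same unit. Adipose progenitor and fibroblast genes summed to 3088, 2315 and 3120 CPM, mostly from collagens and Dpt, and endothelial genes to 1015, 1152 and 809 CPM. Macrophage genes summed to 2465, 645 and 2374 CPM, 3.82 times more in mouse 1 than in mouse 2. For bulk RNA fewer cells of a type and less RNA per cell cannot be told apart, here and for every other marker list.

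Markers of tissues next to the pad were mostly at low counts. Of 11 epididymal epithelium markers, 7 were at the floor of at most 3 counts in each library, and the list summed to 1.08, 0.636 and 1.78 CPM. Of 10 male germ cell markers, 7 were at the floor, and Odf2, which other tissues express too, held 34.3, 38.4 and 32.5 CPM of that list's sums of 34.6, 38.6 and 33.2. Skeletal muscle genes, with 3 of 12 at a mean of at least 1 CPM, summed to 72.3, 86.1 and 75.1 CPM, nearly all from Acta1 and Myl1. The 4 genes of the Y chromosome that were listed, such as Ddx3y at 174, 188 and 153 CPM, were present in all 3 libraries, whose labels give male mice.

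**Figure D2:**
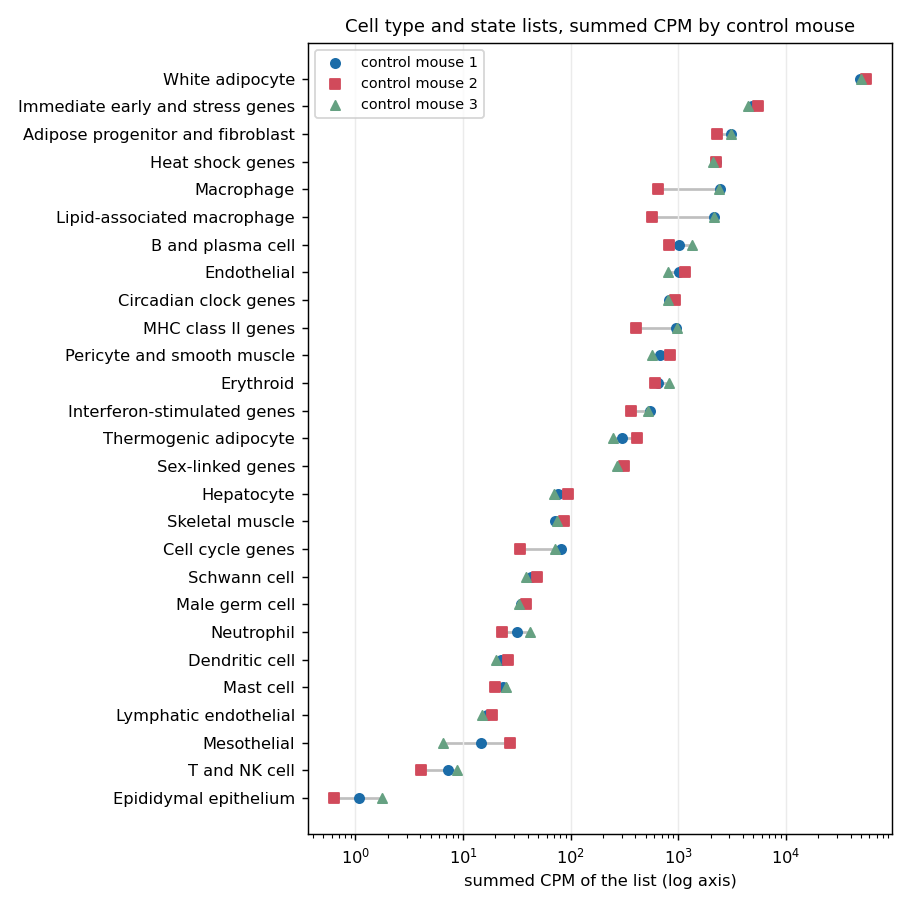
Summed CPM (log axis) of each cell type or state list in control mice 1, 2 and 3, ordered by mean, with a grey line from the lowest to the highest mouse. White adipocyte genes lie at 48645 CPM or more in each mouse, and mouse 2 lies to the left of the others for the macrophage, lipid-associated macrophage, MHC class II and cell cycle lists and to the right for mesothelial genes.

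Thermogenic markers were low compared with those of white adipocytes. Ucp1, the uncoupling protein of brown and beige fat, was at 1.11, 0.227 and 0.664 CPM, from 77, 5 and 16 counts. Mouse 2 was close to its 3-count level and 4.15-fold below mouse 1 on the scale of log2 CPM with a prior count of 2, while mice 1 and 3 were well above theirs. Cidea, a droplet protein rich in brown fat, was at 6.01, 5.68 and 5.77 CPM, and Ppargc1a, a coactivator of mitochondrial genes, at 5.06, 4.997 and 5.14 CPM. These 2 genes hardly differed between the mice. The thermogenic list as a whole summed to 302.5, 417.6 and 249.9 CPM, of which Adrb3, the beta-3 adrenergic receptor that white fat also expresses, was 210.5, 342.7 and 152.1 CPM.

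Among secreted proteins, 116 distinct genes were listed in 5 groups, 107 had a mean of at least 1 CPM and 12 had a mean of at least 1000 TPM. Of the 107, 17 (15.9%) differed at least 2-fold between the highest and the lowest mouse, against 7.45% of all 12932 expressed genes. Of those 17, 14 were lowest in mouse 2, a share like that of the 789 among all 964 genes past 2-fold. The 116 genes held 7.01%, 6.81% and 7.52% of the counts.

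Of 23 hormones and adipokines, 21 had a mean of at least 1 CPM and Itln1 (omentin) had no count. After Adipoq and Lep came Cfd, the complement protease adipsin, at 1864, 2791 and 1495 TPM, Retn (resistin), Rbp4, the retinol carrier, and Rarres2 (chemerin). Retn was at 1312, 2108 and 994 TPM, more than 2-fold higher in mouse 2 than in mouse 3. Rarres2, which shares 30.3% of its 31-base sequences with other genes, went the other way, with 898, 714 and 1072 TPM, and was lowest in mouse 2. Inflammatory members were low in level: Tnf was at 9.66, 4.22 and 8.92 CPM and Il6 at 8.37, 5.68 and 7.59 CPM. Mouse 2 was the lowest for both cytokines, at least 2-fold only for Tnf. Agt, the precursor of angiotensin, was at 64.2, 130 and 31.7 CPM, and every mouse was at about a 2-fold distance from the next.

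Acute-phase, iron and complement proteins were led by Hp at 6080, 3978 and 8703 TPM. B2m, the light chain of MHC class I, was at 4607, 3463 and 5685 TPM and C3, the central complement protein, at 1337, 662 and 1693 TPM. All 3 genes were highest in mouse 3 and lowest in mouse 2, the order of 11 of the 18 expressed members and of 30.8% of all expressed genes. The list summed to 14794, 11642 and 18651 CPM. Trf, the iron carrier transferrin, did not take that order, with 3297, 3932 and 3338 TPM, but 63.9% of its 31-base sequences occur in other genes. Cfb, complement factor B, shares 75.5% of its sequence in the same way, and its level is uncertain for that reason.

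Secreted lipid carriers were dominated by Lpl, lipoprotein lipase, at 7359, 8376 and 6798 TPM, and by Apoe at 5043, 6164 and 4735 TPM. Pltp, which transfers phospholipids between lipoproteins, was at 385, 159 and 468 TPM and was the 1 carrier that differed at least 2-fold. Growth and vascular factors were led by Igfbp4, a binding protein of insulin-like growth factors, at 890, 923 and 925 TPM, then Igf1, Vegfa, Igfbp7, Fgf1 and Vegfb at mean levels between 115 and 250 TPM. Vegfa, the angiogenic factor, was at 201, 272 and 192 TPM, and mouse 2 was the highest. All 33 extracellular matrix genes were expressed, and after Sparc came Col4a1, a basement membrane collagen, at 1363, 1337 and 1398 TPM. Dpt (dermatopontin), which binds decorin, was at 524, 306 and 811 TPM and was 1 of 3 matrix genes past 2-fold, with Lum and Mgp, each lowest in mouse 2. That count of 3 in 33 is near the background of 7.45% past 2-fold and 6.10% also lowest in mouse 2.

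Lipid metabolism had the smallest share of genes past 2-fold among the secreted, lipid and factor groups. Of 122 distinct genes, 117 had a mean of at least 1 CPM, and 2 of these (1.71%, against 7.45% of all expressed genes) differed at least 2-fold, Scd1 and Adrb3, both highest in mouse 2. The share over all genes was itself lower at higher levels, 4.04% between 10 and 100 CPM and 2.39% between 100 and 1000 CPM. In TPM, 20 of the 122 had a mean of at least 1000 and 71 of at least 100. The 122 genes held 11.6%, 13.97% and 10.8% of the counts.

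In fatty acid uptake and activation, Fabp4 and Lpl were followed by Cd36, the fatty acid translocase, at 4003, 3995 and 3816 TPM, Dbi, which binds acyl-CoA, and Acsl1, which activates fatty acids, at 2386, 2049 and 2723 TPM. No member differed 2-fold, and the sums of the list were 37157, 38674 and 37619 CPM. Fabp5, the epidermal paralogue of Fabp4, was at 436, 309 and 458 TPM. In lipid droplet genes, Cav1 (caveolin-1) and Cidec, which enlarges droplets, were followed by Plin1, the perilipin that coats them, at 2637, 2821 and 2689 TPM. Plin2, a perilipin that many cell types express, was at 1214, 712 and 1157 TPM, and mouse 2 was the lowest.

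De novo fatty acid synthesis had the largest ratio of summed CPM between the mice among the lipid lists. Its 15 members, all expressed, summed to 35367, 58427 and 22787 CPM, 2.56 times more in mouse 2 than in mouse 3. Scd1 held most of these sums, and the other 14 members summed to 8574, 10768 and 6477 CPM, 1.66 times more in mouse 2 than in mouse 3. Fasn, the fatty acid synthase, was at 1304, 1689 and 926 TPM, Thrsp, a lipogenic nuclear protein, at 669, 935 and 532 TPM, and Acaca, which makes malonyl-CoA and shares 33.4% of its 31-base sequences with other genes, at 314, 425 and 217 TPM. In each of the 3, mouse 2 was the highest and mouse 3 the lowest, an order shared by 12 of the 15 members against 32.1% of all expressed genes. Slc25a1, the mitochondrial citrate carrier, was an exception at 466, 462 and 516 TPM. Srebf1, a factor that drives these genes, was at 122, 137 and 124 TPM, and Mlxipl, the carbohydrate response factor ChREBP, at 43.4, 45.9 and 47.8 CPM. Neither factor had the spread of Scd1 or Acaca.

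Of 19 expressed members of fatty acid beta-oxidation, 11 were highest in mouse 3 and lowest in mouse 2, against 30.8% of all expressed genes. The steps were small: the sums were 3817, 3678 and 4138 CPM and the median SD of log2 CPM over the members was 0.0981, about that of all genes between 100 and 1000 CPM, 0.0978. Acadm, the medium-chain acyl-CoA dehydrogenase, was at 689, 669 and 761 TPM. Triglyceride synthesis was led by Dgat2, which adds the last acyl chain, at 4755, 5202 and 4770 TPM, and by Gpd1 and Pck1, which supply glycerol phosphate. Pck1 was at 788, 1110 and 666 TPM, highest in mouse 2. Lipolysis was led by Pnpla2, the triglyceride lipase ATGL, at 1579, 1583 and 1735 TPM and Lipe, hormone-sensitive lipase, at 1176, 1303 and 1210 TPM. The 2 lipases differed little between the mice, whereas Adrb3 was at 188, 302 and 136 TPM. Cholesterol synthesis and uptake was the most even list of all by its sum, 1858, 1851 and 1851 CPM, with Hmgcs1, an early enzyme of the pathway, at 386, 375 and 415 TPM.

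Transcription factors were far less abundant per length than secreted or lipid genes. Of 197 distinct factors, 161 had a mean of at least 1 CPM, 26 of at least 100 TPM and none of at least 1000 TPM. Together they held 1.36%, 1.42% and 1.33% of the counts. Of the 161, 4 (2.48%) differed at least 2-fold, against 7.45% of all expressed genes and 4.04% of those between 10 and 100 CPM, among them Spi1 and Irf5, lowest in mouse 2, and Esr1, the oestrogen receptor alpha, at 41.6, 59.0 and 27.2 CPM, highest in mouse 2.

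Cebpa, which with PPAR gamma sets up the adipocyte programme, was at 512, 535 and 540 TPM, and Pparg itself was at 276, 326 and 268 TPM. These 2 factors were among the highest of their families, with mean levels of 529 and 290 TPM. Other nuclear receptors followed with Nr4a1, Rxra, the partner of PPAR gamma, Nr3c1, the glucocorticoid receptor, Nr1h3 (LXR alpha) and Nr1d1, a clock repressor, between 93.2 and 197 TPM on average. Of 49 nuclear receptors, 34 were expressed and 7 were at the floor in each library: Nr1h5, Nr1i2, Hnf4g, Nr2e3, Pgr, Nr0b1 and Nr0b2. Nfe2l1, a bZIP factor of the proteasome response, was at 430, 462 and 419 TPM, and Atf4, Xbp1, Atf5 and Atf3, bZIP factors of stress responses, lay between 123 and 189 TPM on average.

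Immediate early factors, which most cells induce within minutes of a stimulus, reached levels like those of Cebpa. Fos was at 559, 632 and 482 TPM and Egr1 at 371, 462 and 334 TPM, both highest in mouse 2, with Junb, Jun, Fosb and Ier2 between 215 and 310 TPM on average. A wider list of 17 immediate early and stress genes summed to 4838, 5579 and 4423 CPM, and 11 heat shock genes to 2263, 2252 and 2104 CPM. Collagenase digestion is known to induce immediate early genes, and no undigested fat was measured, so the share of the digestion in these levels was not tested. Of the KLF and SP factors, Klf4 led at 162, 160 and 160 TPM, ahead of Klf6, Klf13, Klf3, Sp1 and Klf15, and Klf17 and Sp5 were at the floor. Tsc22d3, a glucocorticoid-induced factor, Srebf1, Epas1 (HIF-2 alpha), Stat6, Tle3 and Ebf1 led the mixed group of metabolic and signalling factors, with mean levels of 191, 128, 127, 116, 85.8 and 75.9 TPM.

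**Figure D3:**
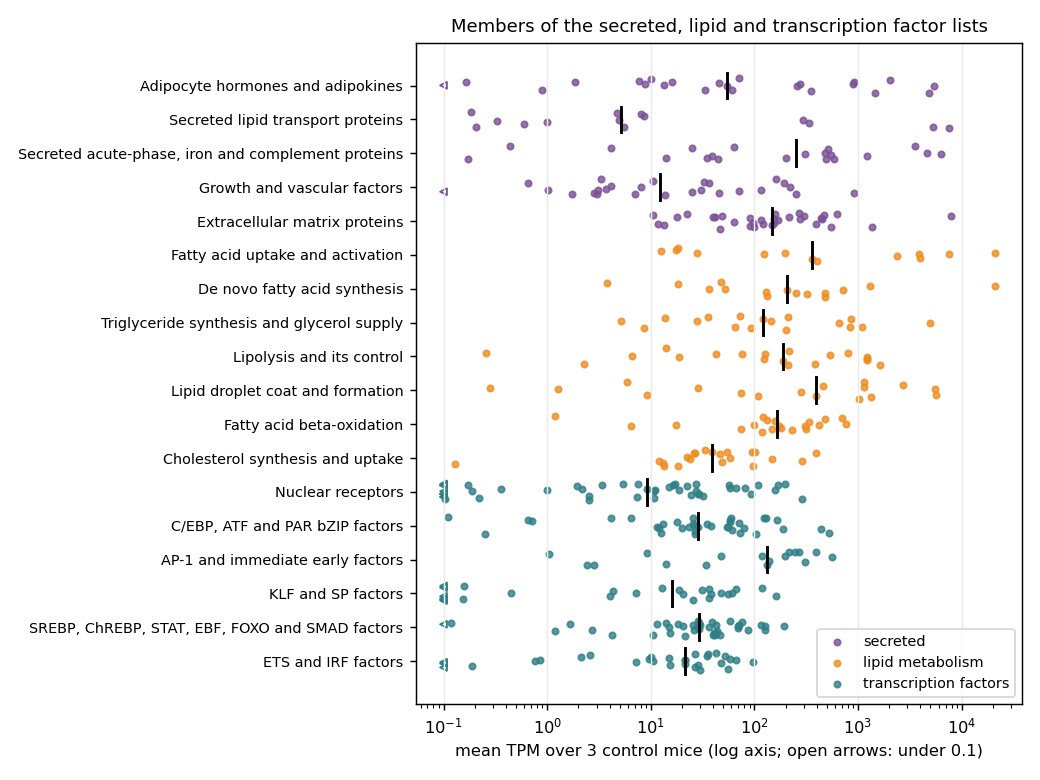
Mean TPM over the 3 control mice (log axis) of each member of the secreted, lipid and transcription factor lists, 1 point per gene, with the list median as a black bar and genes under 0.1 TPM as open arrows. No transcription factor reaches 1000 TPM, whereas 12 secreted and 20 lipid genes do.

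Among ETS and interferon regulatory factors, Irf1 was the highest at 97.3, 95.9 and 97.1 TPM and Irf2, Ets2, Ets1, Elk4 and Irf3 followed between 47.8 and 66.8 TPM on average, none of them 2-fold apart. Elf3 and Etv2 were at the floor. Spi1 (ENSMUSG00000002111; chr2:91082390-91115756), an ETS factor best known from macrophages and B cells, was at 25.4, 6.59 and 28.0 CPM, from 1765, 145 and 674 counts. Mouse 2 was 4.22-fold below mouse 3, on the same scale, which is used for all folds here. Irf5, an interferon regulatory factor of macrophages, was at 22.5, 5.77 and 21.7 CPM. Mouse 2 was the lowest for both, and macrophage markers moved with both genes: 19 of the 20 on that list differed at least 2-fold, 18 of them lowest in mouse 2, against 7.45% and 6.10% of all expressed genes, and none was at the floor. The part of macrophage RNA in the Spi1 values was not tested.

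Variation between the mice was small for most genes. The SD of log2 CPM over the 3 mice had a median of 0.119, with quartiles of 0.0641 and 0.219, and 3775 of the 12932 genes (29.2%) lay within 1.1-fold from the lowest to the highest mouse. The common biological coefficient of variation from edgeR was 0.169. It was 0.0726 without mouse 2, 0.234 without mouse 1 and 0.196 without mouse 3. The 10 most even genes at a mean of at least 100 CPM lay within 1.01-fold, among them Pafah1b2, a lipid-mediator hydrolase subunit, at 100.3, 100.7 and 100.3 CPM, Slc25a3, the mitochondrial phosphate carrier, at 350, 349 and 349 CPM, and Ppp2r1a, a phosphatase scaffold.

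At least 2-fold differences were found for 964 genes (7.45%), and of these 789 (6.10% of all expressed genes) were lowest in mouse 2, 173 (1.34%) in mouse 3 and 2 (0.0155%) in mouse 1. The highest mouse was mouse 1 for 337 (2.61%), mouse 2 for 168 (1.30%) and mouse 3 for 459 (3.55%). Without mouse 2 the count was 58. A difference of this size was more frequent at low levels, with 16.8% of 3707 genes between 1 and 10 CPM, 4.04% of 7329 genes between 10 and 100 CPM, 2.39% of 1799 genes between 100 and 1000 CPM and 4.12% of 97 genes above. The counting error of genes between 1 and 10 CPM had a median of 9.60%, and their median coefficient of variation was 14.9%. Mouse 1 had 3.04 times the counts of mouse 2, and with mouse 1 thinned to the median depth the count was 977.

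**Figure D4:**
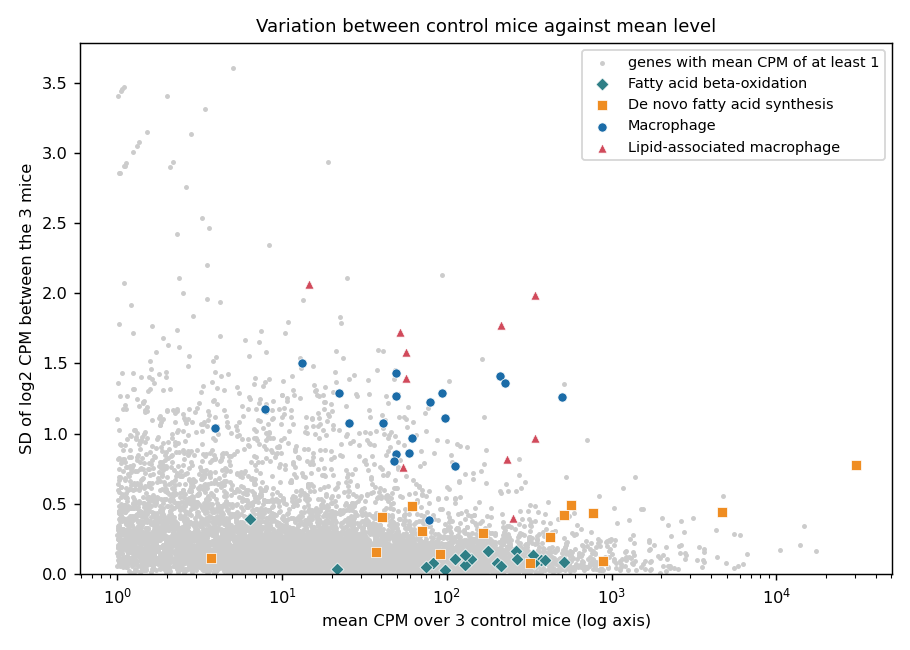
SD of log2 CPM between the 3 control mice against mean CPM (log axis), 1 grey point per gene with a mean of at least 1 CPM, with members of 4 lists coloured. Lipid-associated macrophage and macrophage genes lie far above most genes of their level, fatty acid synthesis genes somewhat above, and most beta-oxidation genes among the bulk of genes of their level.

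Of the 20 genes with the largest SD at a mean of at least 5 CPM, 19 were lowest in mouse 2, and 4 were antibody genes. Igkc, the kappa light chain constant region, was at 88.9, 10.6 and 180.8 CPM, and Jchain, which joins secreted IgM and IgA, at 24.3, 2.82 and 47.0 CPM. Igkv3-2, a kappa variable segment that shares 36.5% of its 31-base sequences with other genes, was at 16.2, 0.772 and 40.1 CPM, and Ighv1-9, a heavy chain variable segment, had 285, 1 and 265 counts. All 4 antibody genes took the order mouse 3, mouse 1, mouse 2, against 30.8% of all expressed genes. B and plasma cell markers as a list summed to 1022, 824 and 1352 CPM, with 5 of 10 expressed and 3 of these past 2-fold and lowest in mouse 2, against 6.10% of all expressed genes.

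Genes of lipid-associated macrophages, cells that gather around dying adipocytes and take up their lipid, formed another part of the 20. Gpnmb, a lysosomal glycoprotein of these cells, was at 496, 44.8 and 482 CPM. Mmp12, the macrophage elastase, was at 310, 35.8 and 294 CPM, and Trem2, a lipid receptor of macrophages, was at 69.5, 9.27 and 77.5 CPM. Spp1 (osteopontin), a secreted matrix and immune protein, was at 21.1, 1.73 and 21.2 CPM, from 1468, 38 and 511 counts. In all 4 genes mice 1 and 3 were close together, and mouse 2 was 11.1-fold, 8.64-fold, 8.32-fold and 12.0-fold below the highest mouse. The list as a whole summed to 2138, 574 and 2134 CPM, and 9 of its 10 members were past 2-fold and lowest in mouse 2, against 6.10% of all expressed genes. Cd63, a tetraspanin of endosomes in many cell types, was the exception at 279, 180.5 and 302 CPM.

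**Figure D5:**
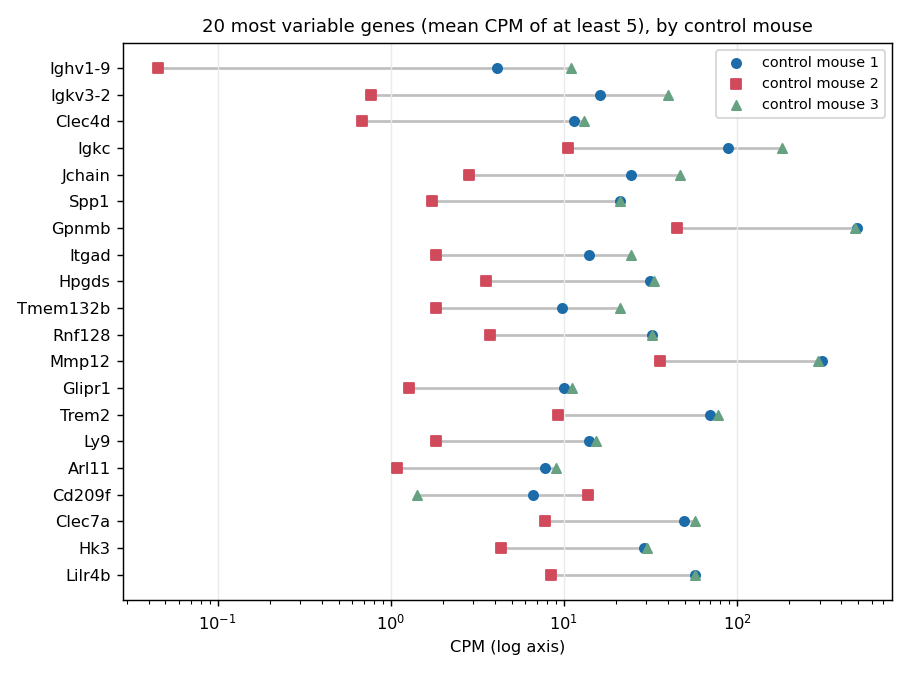
CPM (log axis) of the 20 genes with the largest SD of log2 CPM at a mean of at least 5 CPM, 1 point per control mouse, with a grey line from the lowest to the highest mouse. Mouse 2 is the lowest point in 19 rows, and in the row of Cd209f it is the highest.

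Defining genes of macrophages in general were again lowest in mouse 2. Lyz2 (lysozyme), with 32.8% of its 31-base sequences in other genes, was at 664, 148 and 683 CPM, Adgre1, the F4/80 antigen, at 135, 27.2 and 120 CPM, and Cd68, a lysosomal macrophage protein, at 110, 24.3 and 103 CPM. These 3 genes were 4.61-fold, 4.96-fold and 4.50-fold apart, with mice 1 and 3 close together. Mrc1, the mannose receptor, differed less, with 99.7, 58.2 and 75.6 CPM. Cd163, the haemoglobin scavenger receptor of resident macrophages, was at 11.6, 24.8 and 3.11 CPM and went against the list, as did Cd209f, a C-type lectin, at 6.62, 13.8 and 1.41 CPM, of which 36.3% of the sequence is shared with Cd209g. For both genes mouse 2 was the highest and mouse 3 the lowest. Without mouse 2, 1 of the 20 macrophage genes and none of the 10 lipid-associated macrophage genes differed at least 2-fold, against 58 of 12996 expressed genes.

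Genes of antigen presentation and most of those of cell division were lowest in mouse 2 as well. All 7 MHC class II genes took the order mouse 3, mouse 1, mouse 2, against 30.8% of all expressed genes. H2-Aa, for example, was at 199, 82.9 and 202 CPM, and 6 of the 7 were past 2-fold. Mki67, a marker of dividing cells, was at 24.7, 9.58 and 19.4 CPM, and 11 of 12 cell cycle genes were past 2-fold and lowest in mouse 2. The exception, Ube2c, a ubiquitin-conjugating enzyme of mitosis, was at 6.41, 6.72 and 4.98 CPM, highest in mouse 2. Interferon-stimulated genes summed to 551, 363 and 526 CPM, with 4 of 19 past 2-fold and lowest in mouse 2. Of all expressed genes 7.45% were past 2-fold, and 6.10% were also lowest in mouse 2. Of those between 1 and 10 CPM, 16.8% were past 2-fold. These lists moved with the macrophage list, and how much of them came from macrophages was not tested.

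Mouse 2 was the highest for 168 of the 964 genes (1.30% of expressed genes), and 34 without mouse 3. Among genes at a mean of at least 100 CPM, 3 of the 20 most variable were of this kind. Cyp2e1, an ethanol-oxidising cytochrome P450 of liver and fat, was at 427, 963 and 149 CPM, Emilin2, an elastic fibre glycoprotein, at 92.8, 163 and 44.2 CPM, and Thbd (thrombomodulin), an anticoagulant receptor, at 125, 214 and 61.5 CPM. In each, mouse 1 lay between the other 2 mice. Of 5 expressed mesothelial markers, 4 were past 2-fold and highest in mouse 2, such as Upk3b at 3.48, 7.31 and 1.33 CPM. At their level, between 1 and 10 CPM, 16.8% of genes were past 2-fold. The mesothelial list summed to 14.7, 27.2 and 6.55 CPM. Of 13 endothelial genes none was past 2-fold, against 7.45% of all expressed genes, and 10 took the order mouse 2, mouse 1, mouse 3, against 32.1% of all expressed genes. Their sums had a ratio of 1.42 between mice 2 and 3, and Cdh5 (VE-cadherin) was at 203, 230 and 155 CPM.

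The regions just before the start sites of genes low in mouse 2 were searched for the letters GAGGAAGT on either strand, a core that PU.1 and other ETS factors are known to bind. Of 788 such gene symbols, 578 had a window in RefSeq's table (GRCm38.p6), from which 1 chromosome had been left out. The letters were in 7.31% of their 725 windows of 250 bases. They were in 2.51% of 12811 windows of expressed genes and in 2.44% of the 32851 windows kept. In genes past 2-fold and highest in mouse 2 they were in 0.763% of 131 windows. Windows of 1 gene can overlap, and a match is a run of letters and not a measured binding site. The genes low in mouse 2 include 18 of the 20 macrophage markers. What part of the 7.31% goes with macrophage genes, or with the Spi1 level, was not tested. The windows of 3 of the 20 most variable genes with a match are shown, Spp1 (chr5:104434861-104435110, plus strand), Hpgds (chr6:65144731-65144980, minus strand) and Mmp12 (chr9:7344147-7344396, plus strand), each 5′ to 3′ on the strand of the gene with the matched letters, or their reverse complement, in capitals.
Spp1: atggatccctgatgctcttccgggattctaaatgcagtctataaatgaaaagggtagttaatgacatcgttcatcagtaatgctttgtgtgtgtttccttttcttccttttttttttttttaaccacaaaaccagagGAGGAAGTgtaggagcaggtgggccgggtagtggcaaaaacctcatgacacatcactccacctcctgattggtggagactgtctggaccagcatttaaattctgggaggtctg
Hpgds: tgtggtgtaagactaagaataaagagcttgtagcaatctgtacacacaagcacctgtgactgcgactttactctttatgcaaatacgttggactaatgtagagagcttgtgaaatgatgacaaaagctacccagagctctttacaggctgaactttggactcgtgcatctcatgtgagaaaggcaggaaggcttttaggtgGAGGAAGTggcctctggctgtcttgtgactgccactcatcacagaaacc
Mmp12: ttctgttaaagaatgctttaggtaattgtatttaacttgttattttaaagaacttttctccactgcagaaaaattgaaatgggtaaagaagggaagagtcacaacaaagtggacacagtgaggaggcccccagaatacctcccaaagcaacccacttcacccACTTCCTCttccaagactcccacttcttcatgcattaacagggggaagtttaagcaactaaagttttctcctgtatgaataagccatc
The match starts 113 bases before the start site of Spp1, 49 before that of Hpgds, the haematopoietic prostaglandin D synthase, and 88 before that of Mmp12. Hpgds was at 31.4, 3.54 and 33.0 CPM, lowest in mouse 2 like Spp1 and Mmp12. Other letters differed less or the other way between the same sets: TGACTCA, the AP-1 site, was in 5.38% of the windows of genes low in mouse 2 and 3.33% of those of expressed genes, and GGGCGG, known for SP and KLF factors, in 38.5% and 56.4%. The genes highest in mouse 2 held GGGCGG in a similarly low share, 37.4% of windows, and held TATAAA in 13.7% and TGACTCA in 3.82%. The other strings searched on both strands were a paired TTTC string of interferon regulatory factors (4.83% and 2.63%), the TATA box TATAAA (9.38% and 6.55%), CCAAT (31.6% and 35.1%), TCACNCCAC of SREBP (1.66% and 0.952%), the E-box CACGTG (5.66% and 8.07%) and the PPAR and RXR element, a direct repeat with a spacer of 1 base (0% and 0.0312%).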

How the data were processed

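RNA of the floating adipocyte fraction was sequenced from 1 library per mouse, and the 3 control libraries were used. The authors deposited estimated counts per gene: reads were quantified per transcript with Salmon and summed to genes, without normalization and as whole numbers. The build in the submitters' processing notes is GRCm38, and the annotation behind the counts is not given in the sources used here. Symbols, positions and mean protein-coding transcript lengths are from GENCODE M21, which matched 35031 of 35122 genes, and unmatched genes held 0.0335% to 0.0437% of counts. Columns were assigned to mice through the numbers in the titles.

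CPM used TMM factors over the 3 libraries (edgeR 4.0.16, R 4.3.3), log2 CPM a prior count of 2, and TPM was computed here from counts and lengths. A library with at most 3 counts of a gene was taken as at its floor. Genes with a mean of at least 1 CPM were called expressed. With 1 group of 3 mice no test was made: values are per mouse, and a 2-fold difference between the highest and the lowest mouse is a rule of size. Spread between the mice may be technical or between animals. The biological coefficient of variation came from estimateDisp with an intercept alone. Simulated counts were used to test the edgeR scaling, the 2-fold rule and the coefficient of variation, and not the other steps. Their spread between libraries was set lower than that found here. Members, lists and rules were chosen with earlier results of these data known. Genes were named from the 20 of highest TPM and CPM, the 20 most and 10 least variable, the marker lists, and Spi1. Up to 6 leading members of each secreted, lipid and factor list and those at the floor were named too. Not every gene of these sets is in the text. Cyp2e1, Emilin2, Thbd, and other members of the secreted, lipid and factor lists were named after their values were seen. Shared sequence is the share of 31-base words of a gene's transcripts found in other genes. Figures were drawn with matplotlib 3.10.9. Alternatives were other scaling factors, filters, prior counts and lengths, thinning of mouse 1 and leaving out each mouse. The values of 1 listed gene are not reported here.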

Additional observations from a re-analysis of the deposited data

How the results depend on the processing

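No paired analysis was possible because a single group of mice was described and the labels give no shared numbers. The 909 alternative values held 860 that stayed within the limits set for each result. Reversals of direction were not scored. With mitochondrially encoded genes left out, the top 100 genes held 27.4% of the counts (29.9% with them) and the top 1000 held 57.4% (59.3%). The number of genes past 2-fold was 488 at a mean of at least 5 CPM and 3946 without a filter on low counts, and 58 to 853 with 1 mouse left out, the lowest without mouse 2. Those lowest in mouse 2 were 417 and 2619 under the same filters, and those highest in mouse 2 were 70 and 1175, and 34 to 181 with 1 mouse left out, the lowest without mouse 3. The common biological coefficient of variation was 0.0726 to 0.234 with 1 mouse left out. Of the 100 most variable genes, 14 to 90 were shared with 1 mouse left out, fewest without mouse 2, and 1 to 19 macrophage and 0 to 9 lipid-associated macrophage genes were past 2-fold, fewest without mouse 2. Fewer mice or genes enter these counts by construction. Of the 20 genes of highest TPM, 15 were shared with merged exon lengths and 17 with the longest transcript, with Fabp4 at rank 15 and 17 in place of 1. Of 799 sums and levels of lists and named genes, 33 moved, 28 of them summed TPM under other transcript lengths. With 3 mice the SD of a single gene is imprecise, and below 10 CPM counting error adds to it.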

Other observations

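Some genes of a marker list were at levels far from those of the other members. S100a8, a neutrophil calcium-binding protein, was at 24.95, 18.2 and 36.8 CPM in mice 1, 2 and 3, while S100a9, its usual partner, was at 0.216, 0.0454 and 0.249 CPM, from 15, 1 and 6 counts. The neutrophil genes Ly6g, Retnlg and Ngp were at the floor in every library. Ighm, the constant region of the IgM heavy chain, was at 901, 807 and 1116 CPM, whereas Cd79a, a signalling chain of the B cell receptor, was at 1.37, 1.14 and 1.74 CPM. Ighm thus lay within a narrow range while the antibody genes Igkc and Jchain were 17.0-fold and 16.4-fold apart between the mice.

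Liver-type transcripts were counted in each library at low levels. Alb (albumin) was at 33.6, 47.8 and 27.2 CPM, and 13 of 18 hepatocyte markers had a mean of at least 1 CPM, with sums of 76.2, 95.2 and 69.6 CPM. The T and NK cell list summed to 7.23, 4.09 and 8.71 CPM, with 2 of 12 members expressed. The mast cell list was carried by Kit at 13.9, 17.0 and 12.2 CPM. The 4 other expressed members, Mcpt4, Tpsb2, Cma1 and Hdc, were each past 2-fold and lowest in mouse 2, against 6.10% of all expressed genes. At their level, between 1 and 10 CPM, 16.8% of genes were past 2-fold. Haemoglobin genes, led by Hbb-bs at 277, 248 and 360 CPM, share over 50% of their sequence with one another, and the erythroid list summed to 649, 610 and 824 CPM.

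Tph2, the neuronal tryptophan hydroxylase, was at 125, 53.1 and 183 CPM, and Ubd, a ubiquitin-like protein induced by inflammation, at 179, 36.7 and 277 CPM. Both took the order of the antibody genes, mouse 3 highest and mouse 2 lowest.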
